A study of Mus musculus with 14 samples.

Results

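The 9 genes were listed as formative and primed epiblast genes. Their RNA levels were followed across wild-type and Trincr1-/- mouse embryonic stem cells (ESCs) in 2 media. The name is that of the list and does not describe each gene in these cells. Zic2, Foxd3 and Zic5 were already the highest of them in 2i + LIF, and Foxd3 was lower in PD + LIF. They were chosen by their symbols in the RNA-seq table and comprise the FGF ligands Fgf5 and Fgf15, and the transcription factors Otx2, Pou3f1, Sox3, Sox4, Foxd3, Zic2 and Zic5. Another of the names given, Oct6, is a synonym of Pou3f1, so 10 names gave 9 of the 41204 genes in the table. All 9 were among the 15430 genes with a mean above 0.2 FPKM (fragments per kilobase of transcript per 1e6 mapped fragments, a level corrected for transcript length). Fgf5 and Fgf15 passed that limit only through their values in PD + LIF.

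Poly(A) RNA was sequenced from 8 samples, 2 biological replicates in each of 4 groups. All ESCs carried the labelled strain background C57BL/6(F) x 129/sv(M) and were labelled with a developmental stage of 3.5 days. The first pair of groups, wild type (labelled WT) and Trincr1-/- (labelled Trincr1-ko), grew on gelatin in 2i + LIF, which is N2B27 with the MEK inhibitor PD0325901 at 1.0 μM, the GSK3 inhibitor CHIR99021 at 3.0 μM and leukemia inhibitory factor (LIF) at 1000 units per ml. The second pair, again wild type and Trincr1-/-, spent 24 h in 2i + LIF after plating and 4 further days in PD + LIF, the same medium without CHIR99021. PD0325901 and LIF were thus present in all 4 groups. In the knockout, part of the exons of Trincr1, a long noncoding RNA, was deleted with a pair of guide RNAs. Whether the 2 knockout samples came from 1 clone is not stated.

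Naive ESCs resemble the epiblast of the preimplantation embryo. As the epiblast moves through the formative to the primed state around implantation, it lowers naive factors and raises genes such as Otx2, Pou3f1 and Fgf5, and this step depends on FGF ligands that signal through receptors to MEK and ERK. In 2i + LIF the pathway is blocked at MEK while GSK3 inhibition stabilises β-catenin, and withdrawing CHIR99021 takes away the second of these conditions. The RNA-seq of the series compared ESCs without Trincr1 with wild type in both media, and its pulldown measured the RNAs recovered with TRIM71.

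Trincr1, listed as Gm2694, was measured first as a check of the labels. Its level was 5.7 and 9.45 FPKM in wild type in 2i + LIF and 6.18 and 6.56 FPKM in wild type in PD + LIF. The Trincr1-/- samples had 0.0754 and 0 FPKM in 2i + LIF and 1.38 and 0.746 FPKM in PD + LIF. Both knockout groups lay below both wild-type groups, and the remaining signal was higher in PD + LIF. The core ESC factors Pou5f1, Sox2 and Sall4 summed to between 591 and 938 FPKM in every sample. Each sample held between 10.0 and 13.6 M fragments (M stands for 1e6), as read from the spacing of the lowest FPKM values of short genes with an assumed fragment length of 200 bases.

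The genes lie at separate loci except for the Zic pair. In the GRCm38 coordinates of the table, Fgf5 spans chr5:98254184-98277030 and Fgf15 chr7:144896532-144900953, both with 3 exons on the plus strand. Otx2 lies at chr14:48657679-48667644 on the minus strand and Pou3f1 at chr4:124656807-124660655 on the plus strand. Sox3 (chrX:60891366-60893430), Sox4 (chr13:28948919-28953713) and Foxd3 (chr4:99656299-99658622) each have an annotated transcript with a single exon. Zic5 (chr14:122456795-122465677) and Zic2 (chr14:122475435-122479852) point away from each other, and their RefSeq starts are 9726 bases apart. Noncoding genes of the annotation overlap Fgf15 (Gm26793), Sox4 (Gm26735), Pou3f1 (Gm27247) and Foxd3 (Gm23366). Their levels did not exceed 0.815 FPKM, and since it is not stated whether the libraries kept strand, reads of the overlaps cannot be assigned with certainty.

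RefSeq start sites in GRCm38.p6 were matched by symbol for 5 of the 9 genes, Fgf5, Otx2, Sox4, Foxd3 and Zic5, with 8 windows of 250 bases before the start because Otx2 has 4 starts. The 4 windows shown belong to the classical epiblast marker Fgf5, to Otx2, which had the largest medium effect, to Sox4, whose genotype effect differed between the media, and to Foxd3, which moved opposite to the rest. Capitals mark matches on either strand to the motifs CTTTGA for TCF/LEF factors, ATTTGCAT for POU factors (the octamer), TAATCC for OTX factors, CCGGAA for ETS factors, GGGCGG (called the GC box), TATAAA of core promoters and the letters CCAAT. None of these matches overlap here.
Fgf5 (chr5:98253934-98254183, plus strand): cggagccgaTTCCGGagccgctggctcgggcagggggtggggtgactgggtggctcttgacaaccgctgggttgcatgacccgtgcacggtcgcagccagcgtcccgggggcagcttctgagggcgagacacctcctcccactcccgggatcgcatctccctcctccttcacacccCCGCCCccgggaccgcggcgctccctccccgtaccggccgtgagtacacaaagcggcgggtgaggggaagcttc
Otx2 (chr14:48667645-48667894, minus strand): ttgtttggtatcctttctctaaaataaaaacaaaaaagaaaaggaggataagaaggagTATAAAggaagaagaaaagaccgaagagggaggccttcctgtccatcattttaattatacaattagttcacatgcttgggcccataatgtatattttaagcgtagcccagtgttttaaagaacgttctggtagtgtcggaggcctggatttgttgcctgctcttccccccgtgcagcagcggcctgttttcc
Sox4 (chr13:28953700-28953949, minus strand): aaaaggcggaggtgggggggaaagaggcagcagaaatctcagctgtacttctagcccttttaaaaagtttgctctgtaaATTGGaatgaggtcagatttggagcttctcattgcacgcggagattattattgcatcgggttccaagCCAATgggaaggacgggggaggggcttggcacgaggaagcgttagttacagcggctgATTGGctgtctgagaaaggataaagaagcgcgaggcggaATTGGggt
Foxd3 (chr4:99656049-99656298, plus strand): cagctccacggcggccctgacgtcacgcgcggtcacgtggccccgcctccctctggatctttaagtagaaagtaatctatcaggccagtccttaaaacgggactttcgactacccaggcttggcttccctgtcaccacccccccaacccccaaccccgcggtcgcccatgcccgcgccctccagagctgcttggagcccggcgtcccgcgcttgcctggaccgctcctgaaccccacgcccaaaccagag

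The windows were unlike in composition. G and C made up 70.8% of the Fgf5 window and 65.6% of the Foxd3 window, against 42.0% in the first Otx2 window and a median of 52.4% over 32851 windows of 27025 genes. The Sox4 window held 4 matches to CCAAT, which is present in 33.8% of all windows. The Fgf5 window held an ETS core (12.0% of all windows) and a GC box (32.7%), and the first Otx2 window held the motif TATAAA (12.4%). The Foxd3 and Zic5 windows held none of the 7 motifs. CTTTGA, found in 13.8% of all windows, and ATTTGCAT, found in 1.6%, were in none of the 8 windows, which says only that these letters are not in them. TAATCC, found in 6.25% of all windows, was matched in the window of the third Otx2 start alone.

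In wild-type ESCs in 2i + LIF the ligands were close to undetected while 3 of the transcription factors were clearly expressed. Zic2 was highest at 18.3 and 19.2 FPKM, followed by Foxd3 at 13.7 and 14.1 FPKM and Zic5 at 6.51 and 10.0 FPKM. Otx2 (3.15 and 1.98 FPKM) and Sox4 (2.4 and 2.02 FPKM) came next and overlapped each other. Sox3, Pou3f1, Fgf15 and Fgf5 were all under 1 FPKM. The order in Trincr1-/- ESCs was the same except that Pou3f1 stood above Sox3. The levels of the 9 genes summed, in this medium, to 47.0 ± 2.17 FPKM for wild type and to 47.1 ± 4.26 FPKM for Trincr1-/- (SD, n = 2), and Zic2 alone made up 39.9% and 45.8% of it.

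**Figure D1:**
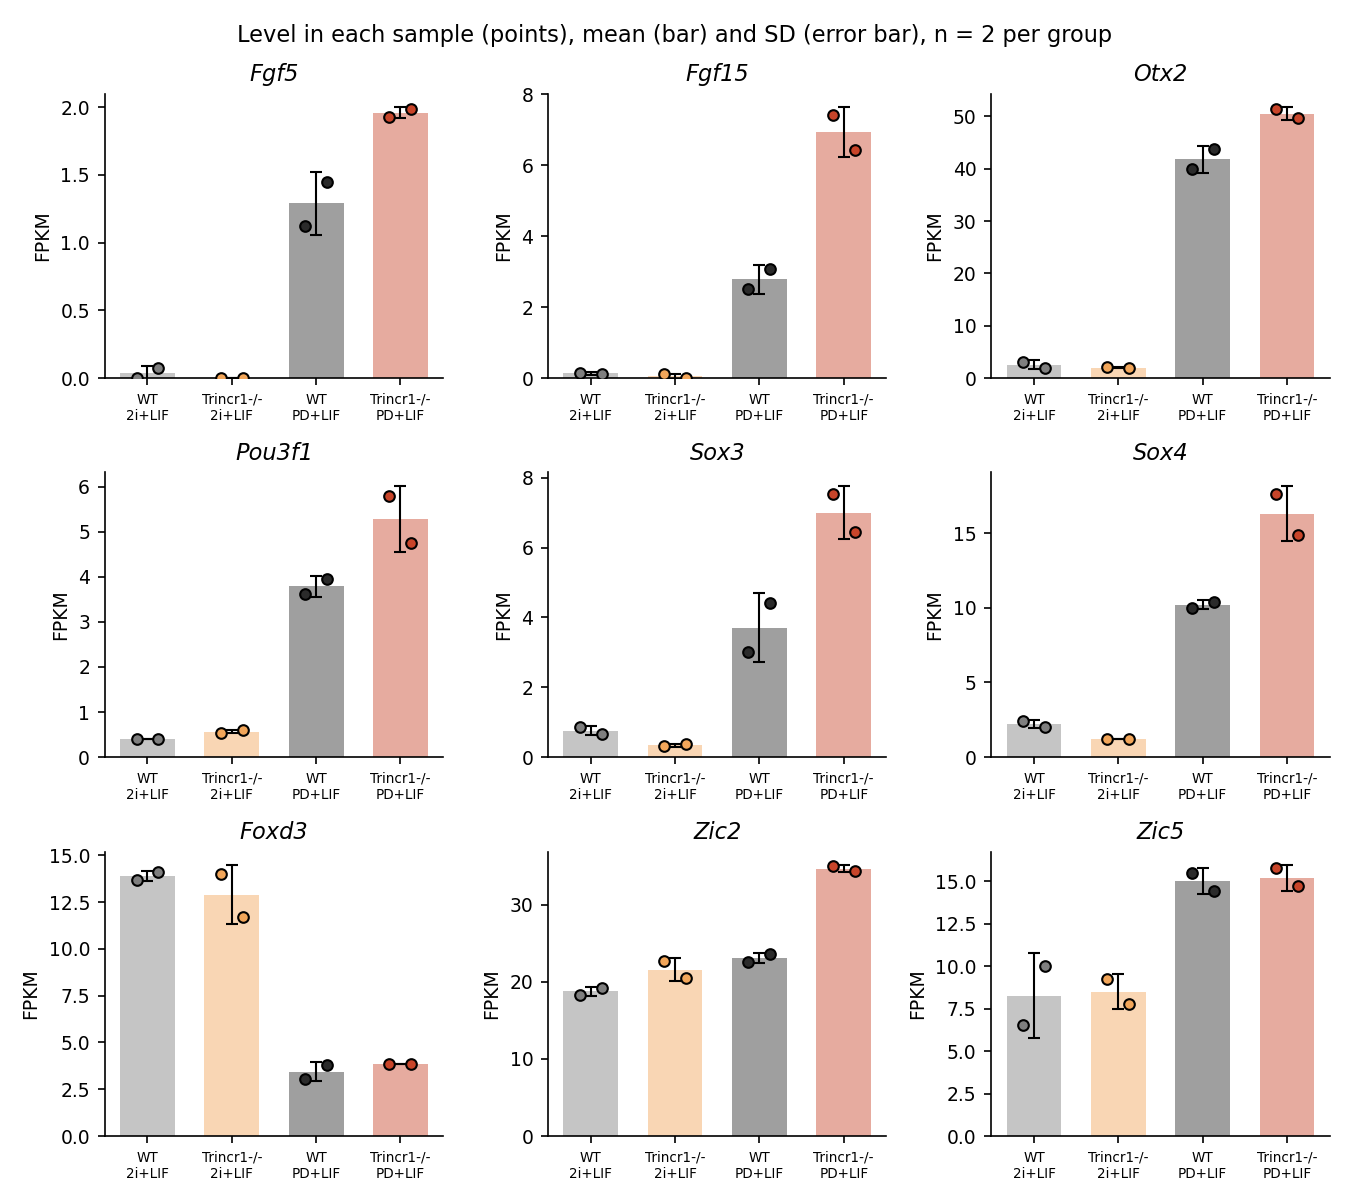
Level of each of the 9 genes in FPKM (y axes, from 0, each with its own scale) in the 4 groups of genotype and medium, with a point for each sample, bars for the mean and error bars for the SD (n = 2 per group). By group mean, 8 genes are higher and Foxd3 is lower in both PD + LIF groups than in both 2i + LIF groups. For Zic2 a Trincr1-/- sample in 2i + LIF (22.7 FPKM) lies above a wild-type sample in PD + LIF (22.6 FPKM). The Trincr1-/- samples in PD + LIF reach the highest values for Fgf15 (6.42 and 7.43 FPKM), Sox4 (14.9 and 17.6 FPKM) and Zic2 (34.4 and 35.0 FPKM).

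Withdrawal of CHIR99021 changed all 9 genes in wild-type ESCs. Otx2, Sox4, Pou3f1, Fgf15, Sox3, Fgf5, Zic5 and Zic2 rose and Foxd3 fell (limma, adjusted p < 0.05 over all genes tested). The medium effect was broad, with 52.2% of all genes tested called, 30.9% higher and 21.3% lower, so that a call in this comparison was common, and Fgf5 and Fgf15 entered the test through their PD + LIF values. The samples of the media did not overlap for any of the 9 genes, nor for 76.4% of all genes tested. The median difference was 1.41 for the 9 genes and 0.08 for all genes tested, in log2(FPKM + 1). In bulk RNA a change in the share of cells that express a gene and a change in RNA per cell cannot be told apart. The PD + LIF cells were also replated and kept for a set time, which cannot be told apart from the medium.

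The ligands went from a few fragments to measurable levels. Fgf5, a secreted factor of the postimplantation epiblast, was listed at 0 and 0.0721 FPKM in wild type in 2i + LIF, the latter equal to about 1.94 fragments, and at 1.12 and 1.45 FPKM in PD + LIF. The PD + LIF samples were both higher, by 1.14 ± 0.12 (SE) in log2(FPKM + 1) with an adjusted p of 0.000285. Fgf15, the mouse counterpart of human FGF19 and a regulator of bile acid synthesis in the adult, was at 0.156 and 0.104 FPKM (about 2.95 and 1.95 fragments) in 2i + LIF and at 2.5 and 3.08 FPKM in PD + LIF. Its samples did not overlap either, and the difference was 1.74 ± 0.14 (adjusted p = 6.48e-05). No fold is given for these ligands because their 2i + LIF values rest on so few fragments.

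Otx2 had the largest medium effect of the 9 genes in log2(FPKM + 1), a scale that understates changes of low genes such as the ligands. In Trincr1-/- the highest difference over the alternative fits was 5.621 for Fgf15 and 4.592 for Otx2. Otx2, a homeodomain factor that directs the step from naive to formative pluripotency, was at 40.0 and 43.7 FPKM in wild type in PD + LIF. Its values in 2i + LIF, given above, were near 2 to 3 FPKM. The ratio of means was 16.3 and the difference 3.61 ± 0.15 in log2(FPKM + 1) (limma, adjusted p = 6.13e-06). It became the most abundant of the 9 genes and made up 39.8% of their sum. Pou3f1, a POU factor that appears early in the exit from the naive state, went from 0.409 and 0.402 FPKM to 3.62 and 3.95 FPKM, a ratio of 9.34 and a difference of 1.77 ± 0.13 (adjusted p = 4.36e-05). The samples of the media were far apart for both genes.

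Both SOX factors rose with the medium. Sox3, of the same SOXB1 group as Sox2, was at 0.849 and 0.669 FPKM in 2i + LIF and at 3.0 and 4.42 FPKM in PD + LIF, a ratio of 4.89. The difference was 1.41 ± 0.17 in log2(FPKM + 1), with an adjusted p of 0.000433. Sox4, a SOXC factor, reached 10.0 and 10.4 FPKM in PD + LIF, a ratio of 4.63 and a difference of 1.81 ± 0.11 (adjusted p = 2.63e-05). For neither gene did the samples of the media overlap.

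Foxd3 and the Zic genes were already abundant in 2i + LIF. Foxd3, a forkhead factor that the early epiblast and later the neural crest require, fell to 3.07 and 3.79 FPKM, 0.247 of its mean in 2i + LIF, a difference of −1.76 ± 0.12 in log2(FPKM + 1) (adjusted p = 3.31e-05). The zinc finger factor Zic5 reached 15.5 and 14.4 FPKM, a ratio of 1.81 and a difference of 0.81 ± 0.17 (adjusted p = 0.00656). Its neighbour Zic2 rose least, to 22.6 and 23.6 FPKM, a ratio of 1.23 and a difference of 0.29 ± 0.07 (adjusted p = 0.00859). The Zic2 call was lost when wild-type replicate 1 in 2i + LIF was left out (adjusted p = 0.0509), while the difference was then 0.26.

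The same 9 genes passed in the same directions in Trincr1-/- ESCs, where 50.0% of all genes tested were called, 29.6% higher and 20.3% lower in PD + LIF. As in wild type, Fgf5 and Fgf15 entered the test only through their PD + LIF values. In 2i + LIF the Trincr1-/- samples were at 0 and 0 FPKM for Fgf5 and at 0.103 and 0 FPKM for Fgf15. The samples of the media did not overlap for 74.5% of all genes tested and for each of the 9. The median difference was 2.00 for the 9 genes against 0.07 for all genes tested. The medium comparisons in the 2 genotypes share no samples. In Trincr1-/- the difference between media was 4.10 ± 0.15 for Otx2 (ratio of means 25.3), 2.95 ± 0.11 for Sox4 (ratio 13.3), 2.91 ± 0.14 for Fgf15 and 2.58 ± 0.17 for Sox3 (ratio 20.6), in log2(FPKM + 1). It was 2.00 ± 0.13 for Pou3f1 (ratio 9.34), 1.57 ± 0.12 for Fgf5, 0.78 ± 0.17 for Zic5 (ratio 1.79), 0.66 ± 0.07 for Zic2 (ratio 1.61) and −1.51 ± 0.12 for Foxd3 (ratio 0.3). Their adjusted p ranged from 2.9e-06 for Otx2 to 0.00826 for Zic5. The Zic5 call was lost without Trincr1-/- replicate 2 in 2i + LIF (adjusted p = 0.0558) and without Trincr1-/- replicate 1 in PD + LIF (adjusted p = 0.054).

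**Figure D2:**
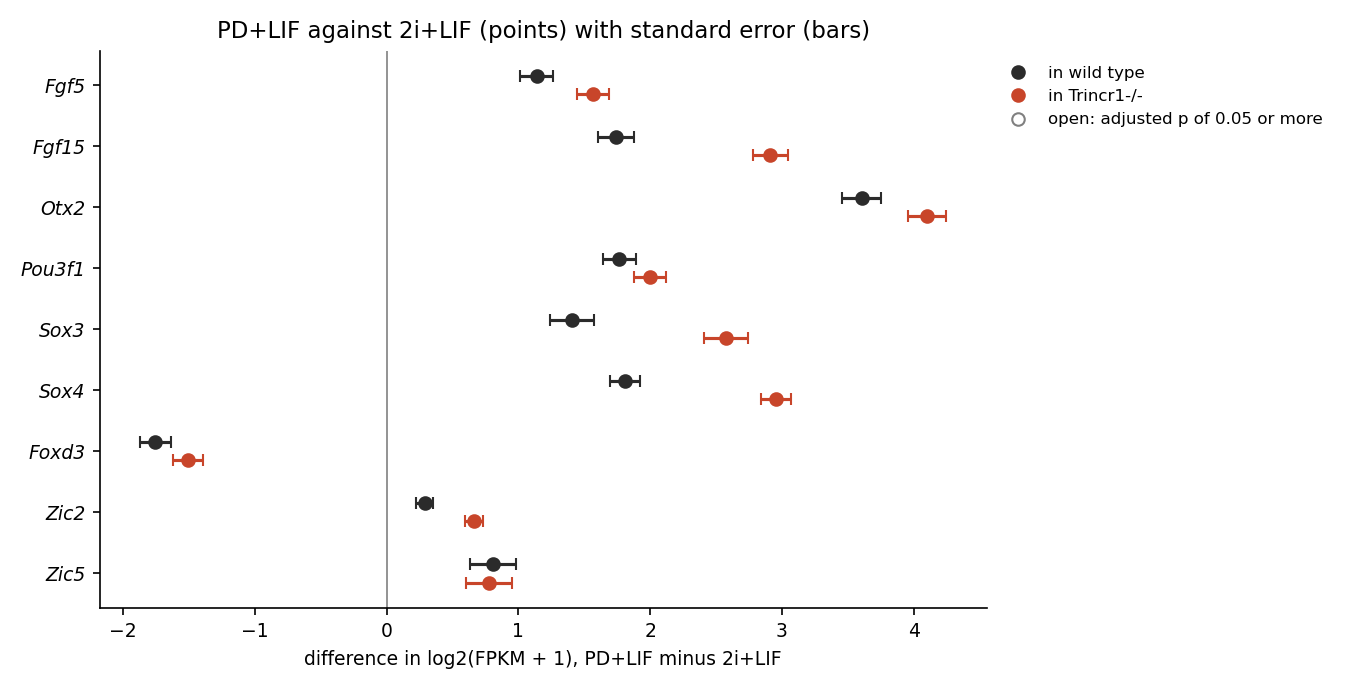
Difference between media in log2(FPKM + 1), PD + LIF minus 2i + LIF (x axis), for each of the 9 genes (y axis) in wild type and in Trincr1-/- ESCs, with bars for the standard error. All points are filled because each adjusted p was under 0.05. Otx2 lies farthest to the right (3.61 and 4.10), Zic2 is nearest to 0 (0.29 and 0.66) and Foxd3 is the one gene on the left (−1.76 and −1.51).

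In 2i + LIF, loss of Trincr1 changed none of the 9 genes past the threshold, where 1.21% of all genes tested were called, 0.35% higher and 0.855% lower. At an unadjusted p under 0.05 there were 2, Sox4 and Zic2, where 14.6% of all genes tested were under it, and with a pseudocount of 0.1 FPKM Sox4 alone passed after adjustment (adjusted p = 0.0454). Sox4 was at 1.22 and 1.23 FPKM in Trincr1-/- against 2.4 and 2.02 FPKM in wild type, with a difference of −0.53 ± 0.11 in log2(FPKM + 1) and an adjusted p of 0.0915. Sox3 was at 0.31 and 0.369 FPKM against 0.849 and 0.669 FPKM, a difference of −0.39 ± 0.17 (95% confidence interval −0.79 to 0.00, adjusted p = 0.348). For both SOX genes the wild-type samples were above the knockout samples, which at the level of Sox3 in the knockout rested on about 6.81 and 6.87 fragments.

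None of the other genes passed in this medium. Zic2 was at 22.7 and 20.5 FPKM in Trincr1-/-, above both wild-type samples, with a difference of 0.19 ± 0.07 (adjusted p = 0.246). Pou3f1 was at 0.54 and 0.59 FPKM, also above both wild-type samples, with a difference of 0.16 (interval −0.14 to 0.45). Otx2 was at 2.08 and 1.92 FPKM, Foxd3 at 14.0 and 11.7 FPKM and Zic5 at 9.24 and 7.76 FPKM, and the genotypes overlapped for all 3. Fgf5 was listed at 0 in both knockout samples and Fgf15 at 0.103 and 0 FPKM, levels at which a genotype difference was not detectable at this depth. The samples of the genotypes did not overlap for 5 of the 9 genes, against 44.4% of all genes tested. Besides Sox3, Sox4, Zic2 and Pou3f1, that count includes Fgf15. Its nearest samples were wild-type replicate 2 (0.104 FPKM) and Trincr1-/- replicate 1 (0.103 FPKM), each at about 1.95 fragments. For Fgf15 the lack of overlap therefore does not show a separation of the genotypes.

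In PD + LIF, 4 of the 9 genes rose in Trincr1-/- ESCs and none fell, where 12.1% of all genes tested were called, 6.29% higher and 5.77% lower. These were Fgf15, Sox3, Sox4 and Zic2. All 9 genes had a positive difference, with a median of 0.39 in log2(FPKM + 1) against 0.01 for all genes tested, and 6 had an unadjusted p under 0.05, where 28.5% of all genes tested did. The samples of the genotypes did not overlap for 8 of the 9 genes, against 57.7% of all genes tested. This comparison shares its wild-type samples with the medium comparison in wild type.

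Fgf15 had the largest genotype difference. It was at 7.43 and 6.42 FPKM in Trincr1-/- against 2.5 and 3.08 FPKM in wild type. Both knockout samples were above both wild-type samples, with a ratio of means of 2.48 and a difference of 1.07 ± 0.14 in log2(FPKM + 1) (adjusted p = 0.00582). The call was lost without Trincr1-/- replicate 1 in PD + LIF (adjusted p = 0.0503). The other ligand, Fgf5, was at 1.93 and 1.99 FPKM against 1.12 and 1.45 FPKM, a ratio of 1.53. Its samples did not overlap, but the difference of 0.38 (interval 0.09 to 0.67) had an adjusted p of 0.0948.

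Among the SOX genes, Sox3 was at 7.54 and 6.46 FPKM in Trincr1-/- against 3.0 and 4.42 FPKM in wild type, a ratio of 1.89, and its difference of 0.78 ± 0.17 in log2(FPKM + 1) had an adjusted p of 0.0291. Sox4 was at 17.6 and 14.9 FPKM against 10.0 and 10.4 FPKM, a ratio of 1.59, with a difference of 0.62 ± 0.11 and an adjusted p of 0.0181. The groups were apart for both genes, with the 2 wild-type samples of Sox3 and the 2 knockout samples of Sox4 spread most. With only the 4 samples of the comparison both calls were lost (limma, adjusted p = 0.0999 for Sox3 and 0.0627 for Sox4). The Sox3 call was held in 1 of the 8 fits that each left out 1 sample, the one without wild-type replicate 2 in PD + LIF, and its adjusted p in the other 7 ranged from 0.0505 without Trincr1-/- replicate 1 in 2i + LIF to 0.16 without Trincr1-/- replicate 1 in PD + LIF. The Sox4 call was lost without wild-type replicate 1 (adjusted p = 0.0983), wild-type replicate 2 (0.0758) or Trincr1-/- replicate 1 (0.115) in PD + LIF.

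Zic2 had the smallest standard error of the 4. It was at 35.0 and 34.4 FPKM in Trincr1-/- against 22.6 and 23.6 FPKM in wild type, a ratio of 1.5. The difference was 0.57 ± 0.07 (limma, adjusted p = 0.00433), and the call held in each of the 16 alternative limma fits. The study's fold rule, which asks for a ratio above 2, did not call Zic2. Its neighbour Zic5 was at 15.8 and 14.7 FPKM against 15.5 and 14.4 FPKM. The Zic5 groups overlapped, and the difference of 0.03 had an interval of −0.38 to 0.44.

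The remaining factors did not pass. Otx2 was at 51.4 and 49.6 FPKM against 40.0 and 43.7 FPKM, a ratio of 1.21 and a difference of 0.27 (interval −0.08 to 0.61, adjusted p = 0.281). Pou3f1 was at 5.8 and 4.76 FPKM against 3.62 and 3.95 FPKM, a ratio of 1.39 and a difference of 0.39 (interval 0.09 to 0.68, adjusted p = 0.0911). The knockout samples were above the wild-type samples for both. Foxd3 was at 3.87 and 3.86 FPKM against 3.07 and 3.79 FPKM, with a difference of 0.14 (interval −0.13 to 0.41).

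**Figure D3:**
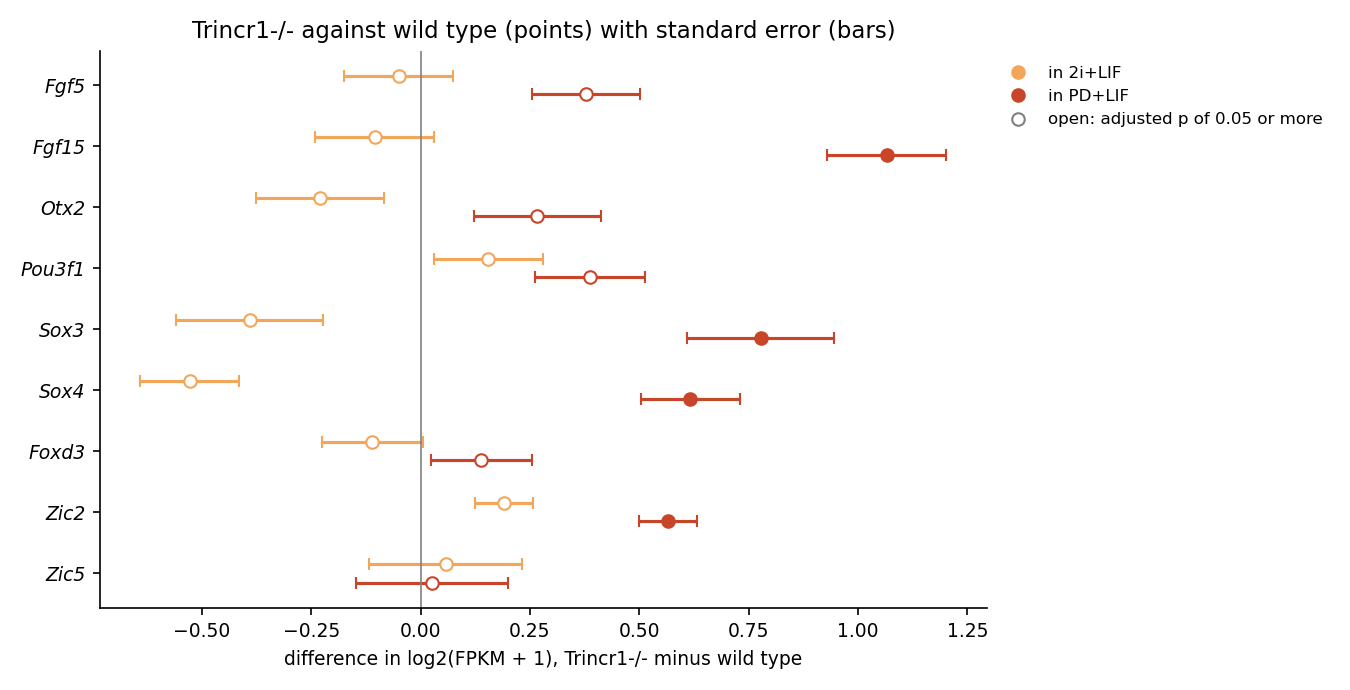
Difference between genotypes in log2(FPKM + 1), Trincr1-/- minus wild type (x axis), for each of the 9 genes (y axis) in 2i + LIF and in PD + LIF, with bars for the standard error, filled points for an adjusted p under 0.05 and open points for the rest. In PD + LIF, Fgf15 (1.07), Sox3 (0.78), Sox4 (0.62) and Zic2 (0.57) are filled and all 9 points lie right of 0. In 2i + LIF all points are open and Sox4 (−0.53) and Sox3 (−0.39) lie farthest left.

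The genotype effect itself was compared between the media with an interaction term. The term passed with a positive sign for 2 of the 9 genes, Fgf15 and Sox4. Of all genes tested, 1.81% were called, 0.992% with a positive and 0.817% with a negative term. The difference of effects was 1.17 ± 0.19 in log2(FPKM + 1) for Fgf15 (adjusted p = 0.038) and 1.14 ± 0.16 for Sox4 (adjusted p = 0.0277). Fgf15 had at most about 2.95 fragments per sample in 2i + LIF, where its genotype effect was −0.105. Its term therefore largely repeats the PD + LIF effect of 1.066 and cannot show a dependence on the medium. Both knockout samples of Sox4 were below wild type in 2i + LIF and above it in PD + LIF. The same held for Sox3, whose difference of 1.17 ± 0.24 had an adjusted p of 0.0619. Each of the 8 fits that left out 1 sample lost both calls, with adjusted p from 0.0726 to 0.129 for Fgf15 and from 0.0592 to 0.112 for Sox4. The other genes had differences of 0.50 (Otx2), 0.43 (Fgf5), 0.37 (Zic2), 0.25 (Foxd3), 0.23 (Pou3f1) and −0.03 (Zic5), of which Zic2 had the lowest adjusted p at 0.0956. Over all 9 the median was 0.43, against 0.01 for all genes tested.

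The order of the 9 genes by level changed with the medium and, in its middle, with the genotype. In wild type in PD + LIF it ran Otx2, Zic2, Zic5, Sox4, Pou3f1, Sox3, Foxd3, Fgf15 and Fgf5, and Pou3f1, Sox3, Foxd3 and Fgf15 each overlapped their neighbour in that order. In Trincr1-/- in PD + LIF it ran Otx2, Zic2, Sox4, Zic5, Sox3, Fgf15, Pou3f1, Foxd3 and Fgf5, where Sox4 overlapped Zic5 and Sox3 overlapped Fgf15. Foxd3 went from 29.6% of the summed level in wild type in 2i + LIF to 3.26% in PD + LIF. In PD + LIF the summed level was 105 ± 5.22 FPKM for wild type and 142 ± 6.51 FPKM for Trincr1-/- (SD, n = 2). There, 4 genes were over 5 FPKM in wild type and 7 in Trincr1-/-.

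Other genes of the formative and primed epiblast, a list of 15 of which all were tested, were read beside the 9. In PD + LIF, 6 were higher in Trincr1-/- and none lower, against 6.29% and 5.77% of all genes tested. Their median difference, over the whole list, was 0.29 in log2(FPKM + 1). The list was chosen with earlier results of these data known. The 6 genes were Grhl2, an epithelial factor (1.59 ± 0.16), Cdh2, N-cadherin (0.96 ± 0.14), and Dnmt3b, a de novo DNA methyltransferase (0.83 ± 0.09). The others were the kinase Pim2 (0.73 ± 0.15), the zinc finger factor Sall2 (0.66 ± 0.13) and Sox11 (0.56 ± 0.09). Their adjusted p by limma ranged from 0.00288 to 0.0256. Dnmt3b was at 137 and 122 FPKM against 65.4 and 79.4 FPKM, and its effect also differed between the media (0.93 ± 0.13, adjusted p = 0.0285). Grhl2 was the 1 gene of the list that rose in Trincr1-/- in 2i + LIF as well, from 0.768 and 0.72 FPKM to 6.85 and 6.74 FPKM (2.16 ± 0.16, adjusted p = 0.00271). In wild type, PD + LIF raised 11 of the 15 and lowered 2, against 30.9% and 21.3% of all genes tested. Among them Sox11 rose by 1.79 ± 0.09, while Etv4, an ETS factor downstream of ERK, fell from 46.4 and 50.4 FPKM to 0.965 and 0.94 FPKM (−4.66 ± 0.16, adjusted p = 4.28e-06).

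**Figure D4:**
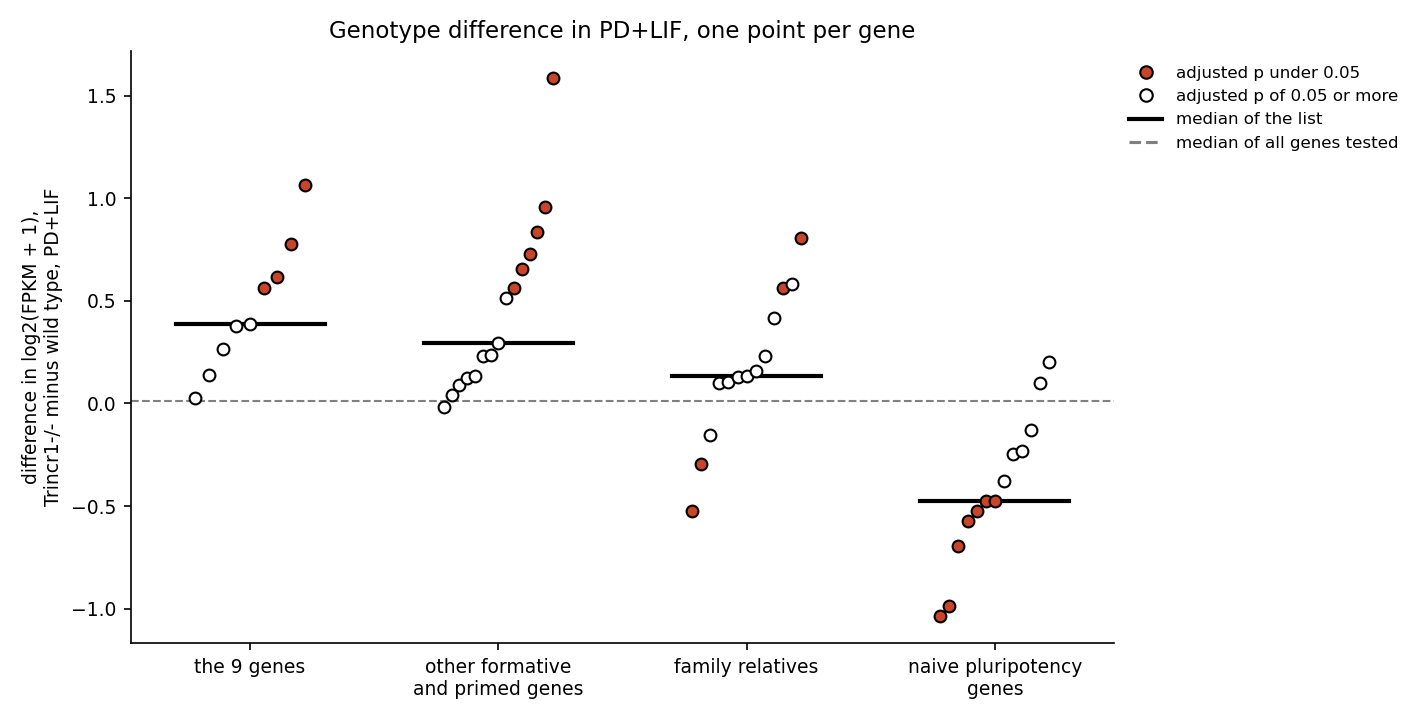
Difference between genotypes in PD + LIF in log2(FPKM + 1), Trincr1-/- minus wild type (y axis), with a point per gene tested for the 9 genes, 15 other formative and primed epiblast genes, 13 family relatives and 13 naive pluripotency genes. Filled points had an adjusted p under 0.05, short lines are medians (0.39, 0.29, 0.13 and −0.47) and the dashed line is the median of all genes tested (0.01). Genes that stand in 2 of the lists are drawn in each.

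Close relatives of the 9 genes moved in both directions. Of 16 relatives, 13 were tested, and Pou3f2, Pou3f3 and Zic4 were below the limit. In PD + LIF Sox1 (0.81 ± 0.12) and Sox11 rose in Trincr1-/-, while Fgf4 (−0.53 ± 0.05) and Sox2 (−0.29 ± 0.06) fell, and the median difference was 0.13. Sox1, like Sox3 a SOXB1 factor, was at 9.97 and 8.56 FPKM against 4.62 and 5.12 FPKM in that medium and at 0.567 and 0.422 FPKM against 0.733 and 0.819 FPKM in 2i + LIF. Its effect differed between the media by 1.06 ± 0.18 (adjusted p = 0.0384). Fgf4, the main FGF ligand of naive ESCs, was far more abundant than Fgf5 or Fgf15, at 82.8 and 81.3 FPKM in wild type and 54.6 and 58.9 FPKM in Trincr1-/- in PD + LIF.

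The most abundant FGF receptor RNAs were Fgfr1 in 2i + LIF and Fgfr1 and Fgfr2 in PD + LIF. Which receptor serves which ligand in these cells was not tested. Fgfr1 was at 47.1 and 48.5 FPKM in wild type and 65.8 and 64.4 FPKM in Trincr1-/- in PD + LIF, a rise of 0.44 ± 0.07 (adjusted p = 0.0111). Fgfr2 rose with the medium, from 1.28 and 0.684 FPKM to 39.6 and 37.9 FPKM in wild type (4.34 ± 0.17, adjusted p = 6.13e-06), and was at 35.0 and 47.0 FPKM in Trincr1-/-. Fgfr3 stayed at or under 1.61 FPKM. Fgfr4 and Klb, the co-receptor of Fgf15, were below the limit on the mean, and Klb did not exceed 0.0262 FPKM in the PD + LIF samples.

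Naive pluripotency genes that passed between genotypes were lower. Of 13 tested, 7 were lower and none higher in Trincr1-/- in PD + LIF, against 5.77% and 6.29% of all genes tested. The median difference of the 13 was −0.47. The 7 lower genes were Tcl1 (−1.04 ± 0.13), Dppa3 (−0.99 ± 0.13), Tfcp2l1 (−0.69 ± 0.07), Esrrb (−0.58 ± 0.06), Fgf4, Klf2 (−0.48 ± 0.07) and Nanog (−0.47 ± 0.07). Their adjusted p by limma ranged from 0.00266 to 0.0102. Nanog, for example, was at 151 and 169 FPKM against 236 and 209 FPKM. In 2i + LIF none of the 13 passed, where 1.21% of all genes tested did. The effect differed between the media for Dppa3 (−1.08 ± 0.18), Tfcp2l1 (−0.75 ± 0.10) and Esrrb (−0.67 ± 0.08), with adjusted p from 0.0267 to 0.0397. With the medium, 9 of the 13 were lower and 2 higher in wild type, against 21.3% and 30.9% of all genes tested. Tbx3 fell most, from 34.7 and 33.7 FPKM to 5.64 and 5.46 FPKM (−2.43 ± 0.07). Dppa3 rose from 44.1 and 34.3 FPKM to 185 and 165 FPKM (2.14 ± 0.13), and Klf2 rose by 0.28 ± 0.07. Of the core factors in PD + LIF, Pou5f1 (−0.20 ± 0.04) and Sox2 were lower and Sall4 (0.39 ± 0.06) was higher in Trincr1-/-.

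Leaving out a single PD + LIF sample cost the call of several of these list genes, namely Cdh2, Pim2, Sall2, Sox11, Sox1, Fgfr1, Dppa3, Klf2, Nanog, Pou5f1, Sox2 and Sall4, with adjusted p up to 0.147. For Pou5f1 and Sox2 leaving out either wild-type sample in 2i + LIF did so too. Grhl2, Esrrb and Fgf4 kept their PD + LIF call in each of the 16 alternative limma fits. Each call of a list gene on the interaction term, the genotype effect compared between the media, was lost in at least 7 of the 8 fits without 1 sample.

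Most markers of other cell types were low, with higher levels of Tfap2c, Pax6 and Sox1, and some moved with the groups. The summed level of 7 primitive endoderm markers was 1.04 to 1.89 FPKM in the 4 samples in 2i + LIF, 4.67 and 5.55 FPKM in wild type and 7.08 and 7.75 FPKM in Trincr1-/- in PD + LIF. Gata6, Sox17 and Sox7 were below the limit on the mean and did not exceed 0.276 FPKM in any sample. Gata4 (2.34 and 2.01 FPKM) and Dab2 (2.16 and 1.95 FPKM) held most of the sum in wild type in PD + LIF. Of the 7 markers, Foxa2 was higher in Trincr1-/- in PD + LIF, at 1.86 and 1.5 FPKM against 0.504 and 0.367 FPKM. That call passed in 9 of 15 alternatives and was lost without any 1 of the 4 PD + LIF samples (highest adjusted p = 0.116 over the alternatives). For 5 neural markers, Sox1 among them, the sum was 1.28 to 2.45 FPKM in 2i + LIF and 14.3 and 16.3 FPKM in wild type and 22.8 and 23.9 FPKM in Trincr1-/- in PD + LIF, where Pax6 was at 9.25 and 10.4 FPKM in wild type and at 12.1 and 14.4 FPKM in the knockout. For 6 trophoblast markers it was 17.4 to 23.8 FPKM in 2i + LIF and 43.4 to 56.9 FPKM in PD + LIF, most of it from Tfap2c, a factor that ESCs are also known to express. Tfap2c was at 12.6 to 17.2 FPKM in the 4 samples in 2i + LIF, and in PD + LIF at 49.0 and 42.1 FPKM in wild type and 33.9 and 38.9 FPKM in the knockout. It rose from 2i + LIF to PD + LIF in wild type by 1.64 ± 0.13 in log2(FPKM + 1) (adjusted p = 7.16e-05) and in the knockout by 1.15 ± 0.13 (adjusted p = 0.000349). Ascl2 was higher in Trincr1-/- in PD + LIF (0.81 ± 0.17), a call that passed in 7 of 16 alternatives and was lost without any 1 of the 4 PD + LIF samples or either wild-type sample in 2i + LIF (highest adjusted p = 0.122). Cdx2 was higher in Trincr1-/- in 2i + LIF (1.19 ± 0.14), a call that passed in 10 of 15 alternatives and was lost without either wild-type sample or Trincr1-/- replicate 2 in 2i + LIF (highest adjusted p = 0.172). For 7 fibroblast markers the sum was 0.556 to 1.35 FPKM in 2i + LIF, 4.14 and 4.59 FPKM in wild type and 5.56 and 6.4 FPKM in Trincr1-/- in PD + LIF, with Dcn and Lum at or near 0. Col1a1 was at 1.95 and 1.82 FPKM in Trincr1-/- against 0.373 and 0.446 FPKM in wild type in PD + LIF (1.03 ± 0.11, limma, adjusted p = 0.0037). That call passed in each of its 15 alternatives, while Col1a2 and Thy1 did not pass between the genotypes. The 6 primitive streak markers summed to 6.01 to 7.6 FPKM in 2i + LIF and 2.84 to 3.06 FPKM in PD + LIF, with none past the threshold between the genotypes. The part of these cells in the results for the 9 genes was not tested.

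RNA pulled down with FLAG-tagged TRIM71, an RNA-binding protein overexpressed in ESCs in 2i + LIF, was listed for 8 of the 9 genes, all but Fgf5, as 1 deposited FPKM value per transcript for the pulldown (IP) and 1 for the input. The labels give 2 replicates that cannot be separated here, so these values have no error and no test. Sox4 was the only gene above 0 in the IP, with 1.3 FPKM, or 3.0 FPKM as scaled by the authors, and 0.4 FPKM in the input. The scaled ratio was 7.5, the unscaled ratio 3.25 and the ratio with each library scaled to its mean 10.8. These ratios rest on a low input and were not set against the IP from cells with an empty vector. The paper's rule for a bound transcript also required an input above 2 FPKM, which Sox4 did not reach. The other 7 genes, with inputs from 0.2 FPKM (Fgf15) to 4.6 FPKM (Zic5), were listed at 0. Of transcripts with a similar input, 66.3% to 97.5% were also listed at 0, so a value of 0 at this level was common.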

How the data were processed

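Poly(A) RNA-seq (8 samples, 4 groups) and TRIM71 RNA pulldown were analysed. The authors aligned reads with STAR 2.5.0 and quantified genes as FPKM with Cufflinks 2.2.1, per the labels and methods, and deposited FPKM values per gene and sample. The labels name mm9, while the deposited coordinates match GRCm38, so those were used. For the pulldown the authors deposited FPKM and a scaled signal (FPKM multiplied to equal averages, by their description) as 1 column each for IP and input. The IP from cells with an empty vector was not used here. Columns holding the authors' own fold of enrichment were not used.

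Of 41260 entries, 1 was kept for each of 39 repeated identifiers, the one with the highest mean, and 27 symbols turned into numbers were restored. Log2(FPKM + 1) values of genes with a mean above 0.2 FPKM entered a single limma fit of the 4 groups (limma 3.58.1, R 4.3.3), with the variance allowed to depend on expression and 4 degrees of freedom left for the residual. The 5 comparisons were adjusted by Benjamini-Hochberg over all genes tested, two-sided, with a threshold of 0.05. The procedure was tested on simulated data. Python 3.11.15 with pandas 2.3.3, numpy 2.4.6 and matplotlib 3.10.9 was used for summaries and plots. Differences are on the log2(FPKM + 1) scale and understate changes of low genes. Promoter windows are RefSeq sequences of GRCm38.p6, and exon counts come from GENCODE M1.

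The members, the other gene lists and the tests were chosen with earlier results of these data known. All members were named. From the other lists, genes past the threshold in a genotype comparison and, per list, those with the largest medium effects were named. Alternatives covered the pseudocount, the filter, scaling, the variance model, the samples fitted, the replicate number as a block, and each sample left out. The study's fold rule was also applied. Numbers of alternatives given for single genes count limma fits and leave out this rule.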

Additional observations from a re-analysis of the deposited data

Results flagged for a closer look

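The interaction term passed for Fgf15, whose genotype difference was not detectable in 2i + LIF at this depth. The difference of effects, PD + LIF minus 2i + LIF, was 1.17 in log2(FPKM + 1) by the interaction term of limma (adjusted p = 0.038), with both Trincr1-/- samples above both wild-type samples in PD + LIF and at most about 2.95 fragments per sample in 2i + LIF. For Sox4 it was 1.14 (adjusted p = 0.0277), with both Trincr1-/- samples below wild type in 2i + LIF (1.22 and 1.23 FPKM against 2.4 and 2.02 FPKM) and above it in PD + LIF (17.6 and 14.9 FPKM against 10.0 and 10.4 FPKM). Both calls were lost in each of the 8 fits without 1 sample and with no filter on low values. Over all alternatives Fgf15 passed in 4 of 15, with adjusted p up to 0.129, and Sox4 in 5 of 15, with adjusted p up to 0.112.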

How the results depend on the processing

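Of 706 values of the 9 genes under an alternative, 653 kept their direction and their side of the threshold. The count of the 9 genes called in PD + LIF between genotypes was 4, and became 2 with a pseudocount of 0.1 FPKM, 1 with only the 4 samples of the comparison, 1 (Fgf15) by the fold rule and 1 to 3 when each sample was left out, and with no filter it was 3. The 2 calls on the interaction term became 1 with a pseudocount of 0.1 FPKM and 0 with no filter on low values, where 22266 genes were tested. Both were lost without each sample in turn. With no variance trend both remained, while the count over all genes went from 279 to 88. In 2i + LIF the count of 0 became 1 (Sox4) with a pseudocount of 0.1 FPKM. A limit of 1 FPKM on the mean left out Fgf5 and with it 1 call in each medium comparison. The fold rule called 6 of the 9 genes in wild type and 7 in Trincr1-/- between media. Of all genes, 186 were called between genotypes in 2i + LIF, with 0 in the fit on 4 samples and 302 by the fold rule, and 1861 in PD + LIF, with 316 and 492. By the fold rule 2333 genes were called between media in wild type, against 8048, and 2411 in Trincr1-/-, against 7708. Fits without 1 sample called fewer genes between genotypes in either medium and fewer on the interaction term. Apart from the fits on fewer samples or genes, the cause was not tested.

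Signs reversed only for differences that passed no test, when 1 sample was left out. In 2i + LIF they were Otx2 (range −0.468 to 0.007, the latter without wild-type replicate 1), Foxd3 (−0.226 to 0.007, the latter without Trincr1-/- replicate 2) and Zic5 (−0.221 to 0.335, with −0.221 and −0.055 without wild-type or Trincr1-/- replicate 1). Zic5 also reversed in PD + LIF (−0.023 and −0.022, range −0.023 to 0.074) and for the interaction term (0.247, 0.081, 0.017 and 0.016, range −0.309 to 0.247).

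No pairing by replicate number was seen, since the deviations of same-numbered samples correlated by −0.054 to 0.006 between groups over all genes tested. This cannot exclude a batch shared by same-numbered samples. With the replicate number as a block, 3 of the 9 genes were called between genotypes in PD + LIF, without Sox3 (adjusted p = 0.051). None were called on the interaction term (Fgf15 0.0801, Sox4 0.0592), where the count over all genes went from 279 to 39. In 2i + LIF the count over all genes was 111 with the block, against 186.

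With 2 samples per group, each effect rests on a spread borrowed across genes and groups. At 10.0 to 13.6 M fragments, Fgf5 and Fgf15 in 2i + LIF were at the limit of detection.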

Other observations

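Genes whose pattern over the 4 group means was most like that of a member were found by the smallest root mean square difference of centred log2(FPKM + 1) means, among genes with a mean of at least 1 FPKM. For Pou3f1 these were Ssbp3, whose group means were 16.7 and 18.6 FPKM in 2i + LIF and 57.7 and 77.3 FPKM in PD + LIF (wild type, then Trincr1-/-), and Sept4. For Fgf5 they were Pex6 and Rnf103. For Fgf15 they were S100a6, with 2.48 and 2.56 FPKM in 2i + LIF and 11.4 and 24.2 FPKM in PD + LIF, and Anxa3. For Otx2 they were Lmx1b, with 0.052 and 0.157 FPKM in 2i + LIF and 12.6 and 18.4 FPKM in PD + LIF, and Esx1. For Sox3 they were Prr7 and Dusp5, and for Sox4 Mfap4 and Sfrp2, the latter with 1.37 and 0.829 FPKM in 2i + LIF and 7.76 and 10.7 FPKM in PD + LIF. For Foxd3 they were Fam26e, with 3.29 and 3.07 FPKM in 2i + LIF and 0.289 and 0.308 FPKM in PD + LIF, and Nfib. The differences were 0.016 to 0.202, over 4 group means, and Zic2 and Zic5 changed too little for this search.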
